A study of Homo sapiens with 18 samples.

Results

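The TCEAL and BEX genes are a cluster of short, related genes on the X chromosome. Of these, 9 are described here, TCEAL1, TCEAL3, TCEAL4, TCEAL8, TCEAL9, BEX1, BEX2, BEX3 and BEX4, out of 13661 genes measured across polysome fractions. They were taken by symbol, and the group was chosen by these same measured fraction values, so what follows about their place in the gradient is a description and carries no test. All 9 (5 TCEAL, 4 BEX) were among the 12720 genes kept, which had a mean of at least 10 reads a library and reads in each gradient. Another 5 family symbols, TCEAL2, TCEAL5, TCEAL6, TCEAL7 and BEX5, are in the annotation. Among them, 2 (TCEAL7 and BEX5) are in the table, and their rows were tested.

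The cells were HEK293, an established human embryonic kidney line, given DMSO vehicle for 12 h. A cytoplasmic lysate was spun through a sucrose gradient, which sorts mRNAs by how many ribosomes they carry, and the gradient was pooled into monosome (1 ribosome), light polysome and heavy polysome fractions. Each fraction had 3 biological replicates, and a gradient here means the 3 libraries that share a replicate number. The other 9 of the series' 18 libraries come from cells given 100 µM minocycline for 12 h and are not analysed here, so all values are from vehicle-treated cells of 1 line.

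TCEAL stands for transcription elongation factor A (SII)-like: the proteins are named for a resemblance to the factor that helps a stalled RNA polymerase II to resume. BEX stands for brain expressed X-linked. Both groups encode small, largely unstructured proteins found in placental mammals, and they are best known from neurons and endocrine tissues. BEX3, also called NADE, was identified as a partner of the p75 neurotrophin receptor, a receptor that can signal cell death.

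Whether an mRNA sits in monosomes or in heavy polysomes depends in part on how long its coding sequence is, because a short coding sequence has room for few ribosomes. All 9 members have a short one. In GENCODE release 29 (GRCh38) the coding length without the stop codon ran from 312 bases for TCEAL9 through 333 for BEX3, 351 for TCEAL8, 360 for BEX4, 375 for BEX1, 384 for BEX2, 477 for TCEAL1 and 600 for TCEAL3 to 645 for TCEAL4. The median of the kept genes with a coding transcript was 1402.5 bases. The whole coding sequence lies in 1 exon in 9 of 9 members, against 5.87% of the kept genes. All 9 lie on chromosome X within a stretch that starts with BEX1 (103062651 to 103064240, minus strand) and ends with TCEAL1 (103628704 to 103630953, plus strand). Between them lie BEX4 (103215092 to 103217246), TCEAL8 (103252995 to 103255203), BEX2 (103309346 to 103311046), TCEAL9 (103356489 to 103358462), BEX3 (103376340 to 103378077), TCEAL4 (103576231 to 103587736) and TCEAL3 (103607451 to 103629690). BEX1, BEX2 and TCEAL8 are read from the minus strand and the other six from the plus strand.

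The bases around the start codon are shown because this is where an initiating ribosome chooses its reading frame, and because they show how alike and how different the members' mRNAs are there. Each line holds 12 bases of the 5′ UTR, the start codon in capitals and the next 9 coding bases, as mRNA sense on GRCh38.
TCEAL1 (chrX:103629905-103629928, plus strand): aaaattcccaacATGgacaaacca
TCEAL3 (chrX:103609053-103609076, plus strand): ggaaatctcgacATGgaaaaaccc
TCEAL4 (chrX:103586664-103586687, plus strand): ggaaatctcgacATGgaaaaactc
TCEAL8 (chrX:103253968-103253991, minus strand): aaaatactcaatATGcaaaagtct
TCEAL9 (chrX:103357673-103357696, plus strand): gacagatacaagATGaaatcctgt
BEX3 (chrX:103377480-103377503, plus strand): aaaaatctcatcATGgcaaatatt
BEX1, BEX2 and BEX4 (across a splice junction, so with no single genomic span): ggcccaggagtaATGgagtccaaa

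BEX1, BEX2 and BEX4 had the same 24 bases. TCEAL3 and TCEAL4 shared the 12 bases before the start codon. A purine at the third base before the start codon, the position that matters most in the context known to favour initiation, was found in 9 of 9 members, as in 86.2% of 12331 kept genes with such a context. G directly after the start codon was found in 7 of 9, all but TCEAL8 and TCEAL9, against 52.9%.

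BEX1 and BEX2 are close copies, with 94.4% identity over the shorter coding sequence. A stretch of 90 coding bases of each shows how reads from the pair can be told apart, and capitals mark the 6 bases that differ.
BEX1 (chrX:103063122-103063211, minus strand, coding bases 64 to 153): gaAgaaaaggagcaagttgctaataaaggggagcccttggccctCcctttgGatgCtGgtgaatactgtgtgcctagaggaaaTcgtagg
BEX2 (chrX:103309815-103309904, minus strand, coding bases 73 to 162): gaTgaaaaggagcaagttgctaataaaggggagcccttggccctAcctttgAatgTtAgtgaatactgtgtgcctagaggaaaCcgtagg

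Reads were 75 nt long. Only 1 of the 790 stretches of that length in BEX1 transcripts was also in another gene's transcript (BEX2), and TCEAL4, TCEAL8, TCEAL9, BEX3 and BEX4 shared none. TCEAL1 and TCEAL3 overlap on the genome and share 12.4% and 12.6% of their stretches, so their reads may be shared and their counts are uncertain. An antisense gene is annotated at TCEAL3, and the sources used here do not say whether counting was stranded.

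The libraries held 13447139 to 24441159 reads. Light polysome library 2 stood apart: across genes its log2 values correlated at 0.894 on average with the other light libraries and at 0.940 with the heavy ones, against 0.985 between light libraries 1 and 3. The members' light shares, fitted differences and ribosome loads that move most with gradient 2 are given with and without it. Of the genes expected in HEK293, 8 of 8 had a mean of at least 10 reads a library (83.3 to 6961), and of 8 genes of other cell types 2 were in the table, CD14 with a mean of 4.33 reads and APOA1 with 11.9. The libraries are bulk, so fewer cells with an mRNA and less of it per cell cannot be told apart.

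The members were abundant, with 1 exception. The level is the normalized count (reads divided by the authors' size factor of the library) summed over the 3 fractions and divided by the length of the gene's exons in kb. BEX3 had by far the highest level, 52668, 31644 and 64510 per kb in gradients 1, 2 and 3, above 99.5% of the kept genes. TCEAL8 followed at 9429 ± 2144 (SD, n = 3), then BEX2 at 6618 ± 1415, TCEAL9 at 6615 ± 1075, BEX4 at 3897 ± 873 and TCEAL4 at 2642 ± 145. TCEAL1 had 2339 ± 761 and BEX1 2237 ± 354. TCEAL3 was the exception, at 61.0 ± 18.9, with 17 to 144 reads in a library against at least 139 for every other member. In that order TCEAL9 and BEX2, TCEAL1 and TCEAL4, and BEX1 and TCEAL1 differed by less than the larger of their SDs. TCEAL8 and BEX2 overlapped, although TCEAL8 was higher within each gradient. The plot of levels shows this order on a log scale.

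**Figure D1:**
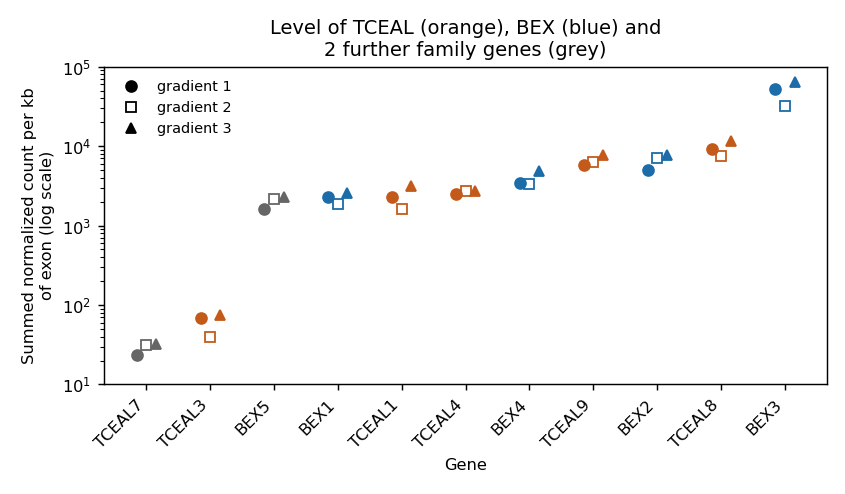
Normalized count summed over monosome, light and heavy fractions per kb of exon (log axis), for each of the 3 gradients, in vehicle-treated HEK293. BEX3 lies between 31644 and 64510, above every other family gene, and TCEAL3 and TCEAL7 lie lowest.

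The first question was where each mRNA sat. The share of an mRNA in a fraction is its percentage of the normalized count summed over the 3 fractions of that gradient. Because each library was scaled to the same typical gene, shares compare genes with each other and do not measure how much RNA a fraction held. The typical kept gene was spread nearly evenly, with a median light polysome share of 30.5% ± 0.38 (SD, n = 3 gradients). The members' median was 54.5% ± 6.63. The light polysome fraction held the largest share in all 3 gradients for 5 members, TCEAL9, BEX1, BEX2, BEX3 and BEX4. This was the case for 9.03% of all kept genes, a figure given as background only, since these shares chose the group. The heavy fraction led in all 3 for TCEAL4 alone (background 21.0%), and the monosome fraction led in all 3 for none (background 17.2%). In the authors' deposited table the same 5 genes carry the class light polysome, and the remaining members are unassigned or mixed.

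**Figure D2:**
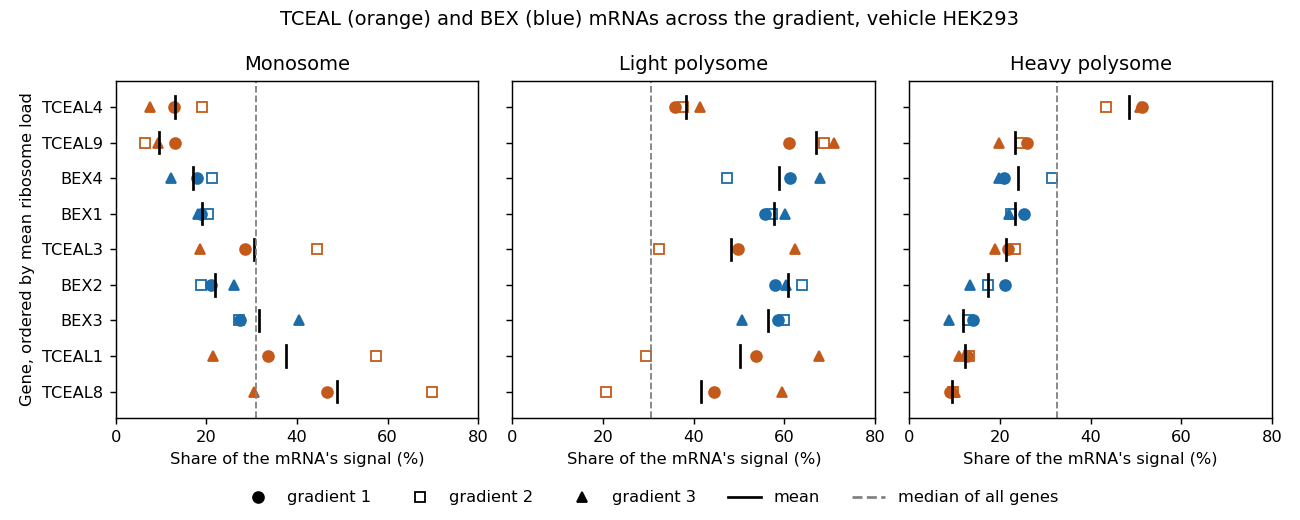
Share of each mRNA's normalized count (%) in the monosome, light polysome and heavy polysome fractions, 1 point per gradient, with the mean as a bar and the median of all kept genes as a dashed line. The BEX genes (blue) and TCEAL9 sit to the right in the light panel in all 3 gradients, TCEAL4 in the heavy panel, and the gradient 2 points of TCEAL1, TCEAL3 and TCEAL8 lie apart from the other two.

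TCEAL9 (formerly WBP5, a small protein first found through binding to a WW domain) had the largest mean light polysome share of the group. Its light share was 61.0%, 68.8% and 71.0% in gradients 1, 2 and 3, its monosome share 13.1%, 6.52% and 9.35%, and its heavy share 25.9%, 24.6% and 19.7%. All 3 light values lie above all 6 others. Of the 12720 kept genes, 11 had a higher mean light share than TCEAL9 (66.9% ± 5.24), and 123 had a lower mean monosome share. In normalized counts TCEAL9 had 6896, 8575 and 10940 in light polysomes, 1481, 813 and 1442 in monosomes, and 2923, 3071 and 3032 in heavy polysomes. The light count was higher than the monosome count by 2.85 on the log2(normalized count + 1) scale (SE 0.38), the largest such difference among the members. TCEAL9 has the shortest coding sequence of the group.

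The 4 BEX mRNAs had their largest share in light polysomes in every gradient. BEX1, an adaptor-like protein linked to nerve growth factor signalling, had light shares of 55.7%, 57.2% and 60.0%. BEX2, its close copy, had 57.9%, 63.8% and 60.4%. For both, all 3 light values lie above all monosome and heavy values. BEX1 had 18.9%, 20.4% and 18.1% in monosomes and 25.3%, 22.4% and 21.9% in heavy polysomes. For BEX2 the monosome shares were 21.0%, 18.9% and 26.2% and the heavy shares 21.1%, 17.3% and 13.4%. The light shares of the copies overlap, while in heavy polysomes every BEX1 value was above every BEX2 value.

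BEX3, the p75 receptor partner, had light shares of 58.6%, 59.9% and 50.7%, monosome shares of 27.4%, 27.3% and 40.4% and heavy shares of 13.9%, 12.8% and 8.83%. It was the lowest of the BEX genes in heavy polysomes, and its monosome share in gradient 3 was the highest of any BEX value. BEX4, a microtubule-associated member of the group, had light shares of 61.3%, 47.3% and 67.8%, monosome shares of 17.9%, 21.2% and 12.3% and heavy shares of 20.8%, 31.5% and 19.9%. Gradient 2 was its lowest for light and its highest for heavy. The BEX median light share was 58.3%, 58.6% and 60.2% over the gradients (59.0% ± 1.06). The TCEAL median was 49.7%, 32.3% and 62.3% (48.1% ± 15.1). The smaller spread of the BEX median was not tested against that of the TCEAL median.

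TCEAL4 was the member with the largest heavy polysome share. Its heavy shares were 51.3%, 43.4% and 51.0%, its light shares 35.8%, 37.6% and 41.4%, and its monosome shares 12.9%, 19.1% and 7.62%. Every heavy value was above every light value, and every light value above every monosome value. In heavy polysomes it had normalized counts of 3196, 2977 and 3497, against 804, 1308 and 523 in monosomes, a log2 difference of 1.97 (SE 0.37). TCEAL4 also has the longest coding sequence of the group.

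TCEAL1, TCEAL3 and TCEAL8 were low in heavy polysomes or changed their leading fraction between gradients. TCEAL1, a nuclear phosphoprotein and a modulator of transcription in reporter assays, had light shares of 53.8%, 29.4% and 67.6% and monosome shares of 33.6%, 57.5% and 21.5%. Light polysomes led in gradients 1 and 3 and monosomes in gradient 2, while the heavy share stayed at 12.7%, 13% and 11.0%. TCEAL3 had light shares of 49.7%, 32.3% and 62.3%, monosome shares of 28.6%, 44.3% and 18.7% and heavy shares of 21.7%, 23.4% and 19.0%. Its reads were few, and its shares ran in the same order over the gradients as those of TCEAL1. TCEAL3 and TCEAL1 overlap and may share reads, so this likeness may not be independent. TCEAL8 had light shares of 44.5%, 20.7% and 59.5%, monosome shares of 46.6%, 69.7% and 30.6% and heavy shares of 8.92%, 9.57% and 9.95%. For TCEAL8 monosomes led in gradients 1 and 2 and light polysomes in gradient 3.

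Gradient 2 therefore split the group. Without it, the mean light share was 60.7% for TCEAL1 (50.3% ± 19.3 with it), 56.0% for TCEAL3 (48.1% ± 15.1), 52.0% for TCEAL8 (41.6% ± 19.6) and 64.6% for BEX4 (58.8% ± 10.5). For the others the change was small: TCEAL9 went from 66.9% to 66.0%, BEX2 from 60.7% to 59.1%, BEX1 from 57.7% to 57.9%, BEX3 from 56.4% to 54.7% and TCEAL4 from 38.3% to 38.6%. Over gradients 1 and 3 alone, light polysomes led for 7 members, with TCEAL1 and TCEAL3 added, and for 2735 of the 12720 kept genes. Among genes outside the families, 903 had at least 50% in light polysomes in both gradients 1 and 3. Their median light share was 57.7% and 56.8% there and 40.4% in gradient 2. Of these genes, 193 (21.4%) still had 50% in gradient 2. This limit was chosen after the values were seen. Because gradients 1 and 3 picked the genes, a lower share in gradient 2 is partly set by the choice. Among the members, 6 met the same condition of at least 50% in gradients 1 and 3. Of those, 4 (TCEAL9, BEX1, BEX2 and BEX3) still had 50% in gradient 2. These shares chose the group, so nothing is read from that count. Light library 2 stands apart across all genes, and its part in the values of TCEAL1, TCEAL3 and TCEAL8 was not tested.

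**Figure D3:**
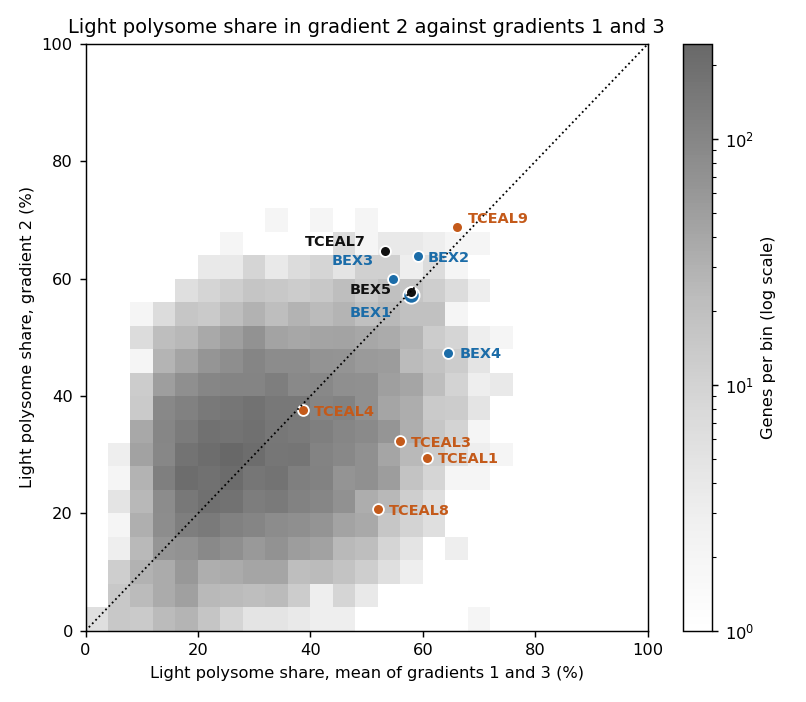
Light polysome share in gradient 2 (vertical axis, %) against the mean of gradients 1 and 3 (horizontal axis, %), with all kept genes as a grey density on a log colour scale and the family genes as points (TCEAL orange, BEX blue, BEX5 and TCEAL7 black). TCEAL1, TCEAL3, TCEAL8 and BEX4 lie below the dotted line of equal shares, and TCEAL9, BEX2 and BEX3 lie above it.

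The second question was how large the differences between fractions were. They were fitted with limma on log2(normalized count + 1) over all kept genes, and for the members they are descriptions with standard errors. From light to heavy polysomes 8 of the 9 members had lower values. The difference was −2.27 (SE 0.52) for BEX3, −2.0 (SE 0.49) for TCEAL8, −1.96 (SE 0.46) for TCEAL1, −1.84 (SE 0.37) for BEX2 and −1.52 (SE 0.38) for TCEAL9. BEX1 and BEX4 both had −1.31 (SE 0.30 and 0.36), and TCEAL3 had −1.10 (SE 0.47). TCEAL4 alone had a difference above 0, 0.34 (SE 0.37), which is within its error. In each gradient taken alone the sign was the same for all 9 members. Without gradient 2 the difference was −2.45 for TCEAL8, −2.35 for TCEAL1, −1.43 for TCEAL3 and −1.66 for BEX4, and the values of the others lay between −2.30 (BEX3) and 0.41 (TCEAL4). The median over all kept genes was 0.049.

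Between light polysomes and monosomes the members ranged more widely. After TCEAL9, the difference was 1.80 (SE 0.36) for BEX4, 1.63 (SE 0.37) for TCEAL4, 1.59 (SE 0.30) for BEX1, 1.47 (SE 0.37) for BEX2 and 0.85 (SE 0.52) for BEX3. TCEAL3 had 0.68 (SE 0.47), TCEAL1 0.46 (SE 0.46) and TCEAL8 −0.29 (SE 0.49). For the last 3 the gradients took different signs: TCEAL1 had 0.68, −0.97 and 1.65 in gradients 1, 2 and 3, TCEAL3 0.79, −0.44 and 1.70, and TCEAL8 −0.06, −1.75 and 0.96. Without gradient 2 their fitted differences were 1.17, 1.24 and 0.45, and without light library 2 alone 1.05, 1.22 and 0.31. For the other 6 members they ran from 0.71 (BEX3) to 2.57 (TCEAL9) without gradient 2. Between heavy polysomes and monosomes, TCEAL4 and TCEAL9 lay above 0 (1.97 and 1.32, SE 0.37 and 0.38) and TCEAL8, TCEAL1 and BEX3 below (−2.29, −1.50 and −1.42, SE 0.49, 0.46 and 0.52). BEX4, BEX1, BEX2 and TCEAL3 lay between −0.42 and 0.49, with SEs of 0.30 to 0.47. Without gradient 2 the heavy against monosome difference of TCEAL3 was −0.18, and the signs of all 9 members stayed as they were.

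**Figure D4:**
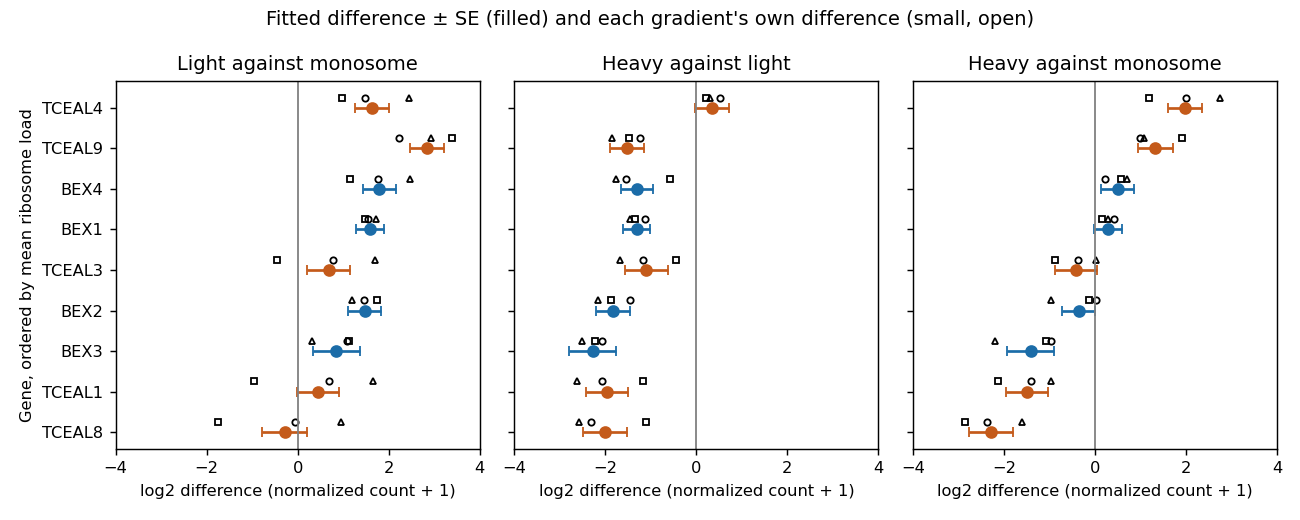
Fitted log2 differences of the normalized count plus 1 between fractions (filled points, bars ± SE) and the difference within each gradient (small open symbols: circle 1, square 2, triangle 3) for the 9 members. From light to heavy polysomes 8 members lie below 0 and TCEAL4 lies at 0.34, and for TCEAL1, TCEAL3 and TCEAL8 the gradient 2 value from monosome to light lies below 0.

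Scaling matters for any statement against monosomes. When libraries were scaled by their read totals, the median over all kept genes moved from 0.13 to 1.39 on the log2 scale for heavy against monosome and from 0.035 to 1.22 for light against monosome, but only from 0.049 to 0.13 for heavy against light. Under that scaling the differences of TCEAL3 and BEX2 for heavy against monosome changed sign (to 0.82 and 0.92), as did that of TCEAL8 for light against monosome (to 0.92). For heavy against light no member changed sign under any of 11 alternatives. Reads of mitochondrially encoded mRNAs were 26.0%, 3.87% and 19.5% of the monosome libraries 1, 2 and 3, and the part of this in the shift was not tested. Under read totals the light fraction led in all 3 gradients for 7 members, the 5 above with TCEAL1 and TCEAL3, against 20.0% of kept genes.

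The calls of the same fit over all genes serve as background. At a Benjamini-Hochberg adjusted p of 0.05 in limma, 8.47% of the kept genes were higher in light polysomes than in monosomes and 10.2% were lower, and 5 and 0 of the 9 members fell on these sides. Heavy against light, 14.7% of genes were higher and 17.5% lower, with 0 and 7 members. Heavy against monosome, 24.7% were higher and 24.4% lower, with 2 and 3 members. These contrasts use the values that chose the group, so nothing is read from the counts.

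BEX5 and TCEAL7 are relatives that the rule left out, and their tests stand on their own rows. BEX5 had light shares of 55.5%, 57.8% and 60.1%, monosome shares of 22.0%, 26.5% and 19.1% and heavy shares of 22.6%, 15.7% and 20.8%, so that light led in every gradient and no other value reached it. It was higher in light polysomes than in monosomes by 1.37 (SE 0.32), in 3 of 3 gradients, with an adjusted p of 0.0102 in limma. It was lower in heavy than in light polysomes by 1.57 (log2 difference −1.57, SE 0.32), again in 3 of 3, with an adjusted p of 0.00712 in limma. Without gradient 1 the adjusted p values from limma were 0.157 and 0.147, and without gradient 3 they were 0.161 and 0.0850. Without gradient 2 the differences were 1.49 and −1.41, with adjusted p values of 0.00131 and 0.000705 in limma. Heavy and monosome did not differ past the threshold (−0.20, SE 0.32, adjusted p = 0.631 by limma). With read totals as the scale this difference was 1.08 and passed (adjusted p = 0.0155 by limma). The median over all kept genes was then 1.39. TCEAL7 had only 3 to 34 reads in a library, at a level of 28.9 ± 4.71 per kb. Its light shares were 52.8%, 64.7% and 53.6%. Its differences of 1.22 (light against monosome, adjusted p = 0.121 by limma) and −1.39 (heavy against light, adjusted p = 0.0550 by limma) did not pass. With read totals the first was 2.29 and passed (adjusted p = 0.00275 by limma), where the median over all kept genes was 1.22. With edgeR's quasi-likelihood test on the recovered reads the second had an adjusted p of 0.0239, and with DESeq2 0.0280.

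Mean ribosome load (MRL) puts the 3 shares into 1 number, weighting them by 1, 2.5 and 6 for monosome, light and heavy polysomes. It is a score built on the scaled shares, so it compares genes with each other and does not count ribosomes. The median over kept genes was 3.17 and the members' median 2.88 ± 0.05 (SD, n = 3 gradients). Scaling each library to the same typical gene largely sets that 3.17, which serves only as a reference between genes. TCEAL8 was lowest, with 2.11, 1.79 and 2.39 in gradients 1, 2 and 3. TCEAL1 had 2.44, 2.09 and 2.56, and BEX3 2.58, 2.54 and 2.20. All 3 had a mean heavy share of at most 12.2%, against a median of 32.5% over kept genes. BEX2 had 2.92, 2.82 and 2.58, TCEAL3 2.83, 2.65 and 2.88, and BEX1 3.10, 2.98 and 2.99. BEX4 had 2.96, 3.28 and 3.01 and TCEAL9 3.21, 3.27 and 3.05, which is −0.04 and 0.0033 from the median gene on the log2 scale. TCEAL4 was highest, with 4.10, 3.73 and 4.17, all above every value of the other members. Of the neighbours in this order, BEX3 and BEX2, TCEAL3 and BEX1, and TCEAL9 and TCEAL4 were separated by more than the larger SD with no overlap of their values. TCEAL8 and TCEAL1, TCEAL1 and BEX3, BEX2 and TCEAL3, BEX1 and BEX4, and BEX4 and TCEAL9 were not. Within gradients, however, TCEAL1 was above TCEAL8 in 3 of 3, by 0.327, 0.305 and 0.173. The order within each of the other pairs not separated changed between gradients. Without gradient 2 the mean MRL was 2.25 for TCEAL8, 2.50 for TCEAL1, 2.39 for BEX3 and 4.14 for TCEAL4.

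**Figure D5:**
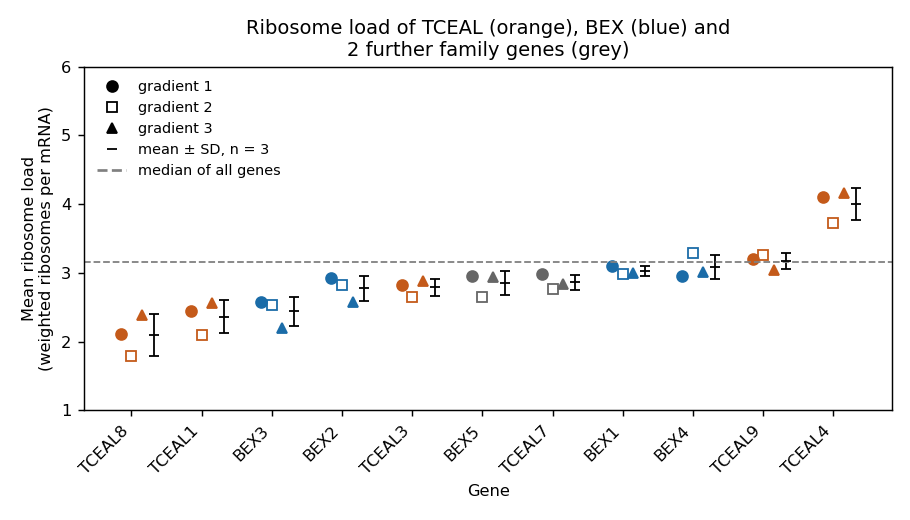
Mean ribosome load in each gradient, with mean ± SD (n = 3) in black, for the 9 members, BEX5 and TCEAL7 (grey). The axis is labelled weighted ribosomes per mRNA, but the load is a score that compares genes. The dashed line is the median of all kept genes, 3.17. TCEAL4 lies above the line in all 3 gradients, TCEAL9 and BEX4 lie around it, and TCEAL8, TCEAL1 and BEX3 lie lowest.

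Against the median gene, 22.0% of the kept genes had a higher and 24.7% a lower MRL at an adjusted p of 0.05 in limma. Of the members, TCEAL4 was on the higher side, and TCEAL1, TCEAL8 and BEX3 on the lower one, from which nothing is read. BEX5 had an MRL of 2.85 ± 0.17 (log2 difference from the median gene −0.15, adjusted p = 0.202 by limma) and TCEAL7 2.86 ± 0.11 (−0.15, adjusted p = 0.209 by limma). With read totals as the scale both passed, with adjusted p values of 0.0353 and 0.0368 from limma.

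Other genes with coding sequences as short as the members', 312 to 645 bases, give a nearer background. There were 1587 of them outside the families. Their median MRL was 2.61 ± 0.14 and their median light share 38.0% ± 4.12, and the light fraction led in all 3 gradients for 18.7% of them. The members' median MRL was 2.88 and their median light share 54.5%. Within the group TCEAL9 (312 bases) had an MRL of 3.17 and TCEAL8 (351 bases) 2.10. TCEAL3 and TCEAL4 (600 and 645 bases), whose coding sequences are 69.0% identical, had 2.79 and 4.0. BEX1, BEX2 and BEX4, with the same start context, had 3.03, 2.77 and 3.08. An ATG upstream of the start codon is absent from the 5′ UTR of 3 of 9 members (TCEAL1, BEX1 and BEX4), as in 46.8% of kept genes, and those 3 had MRL values of 2.37, 3.03 and 3.08. TCEAL9, whose chosen transcript is a single exon with a 5′ UTR of 1167 bases, has 5 such ATGs, although another of its transcripts has a 5′ UTR of 188 bases. Whether MRL goes with coding length, start context or upstream ATGs was not tested.

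To see which mRNAs were placed most like each member, genes were ranked by the Euclidean distance over the 9 shares, in percentage points. BEX3 had the closest neighbours, RAB5IF at 4.41 and the cytochrome c oxidase assembly factor COX16 at 4.49. TCEAL8 was nearest to PDCD5 (5.08), BEX1 to the kinase NEK7 (5.88) and BEX2 to the ubiquitin ligase RNF5 (8.86). TCEAL1 was nearest to EIF5A2 (8.50), EIF1B and EIF4E2, which encode translation factors or their relatives, and TCEAL3 to PLPP7 (8.86). TCEAL4 was nearest to WWC2 (9.33). TCEAL9 had the most isolated profile, its nearest gene MTPN, which encodes myotrophin, being 12.3 away. Within the families the closest pair was BEX1 and BEX5 at 10.2, closer than BEX1 and its near copy BEX2 at 15.3. TCEAL1 and TCEAL3, whose transcripts overlap, were 22.6 apart, and TCEAL4 and TCEAL8 were farthest apart at 97.6.

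Genes of related pathways were taken from lists and tested in the same fits. The list of RNA polymerase II elongation factors is broader than the SII factors that the TCEAL proteins are named for. Of its 33 kept genes, 12 had a higher MRL than the median gene, 5 a lower one and 16 did not pass. This stands beside 22.0% higher and 24.7% lower over all kept genes. The median MRL of the listed factors was 3.71, and none had light polysomes leading in all 3 gradients, as 9.03% of all kept genes did. RTF1, a subunit associated with the PAF1 complex, had an MRL of 5.11 ± 0.27 (adjusted p = 0.000333 by limma) and PAF1 itself 4.60 ± 0.35 (adjusted p = 0.00125 by limma). At the low end were HEXIM1, an inhibitor of the elongation kinase P-TEFb, at 1.79 ± 0.15 (adjusted p = 0.000609 by limma) and TCEA2, a true SII factor, at 1.89 ± 0.08 (adjusted p = 0.000736 by limma). TCEA1, another SII factor of the list, had 3.53 ± 0.42 and did not pass (adjusted p = 0.225 by limma). The low load of TCEA2 is therefore not a trait of the SII factors as a set.

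Of 18 kept genes of the p75 neurotrophin receptor pathway, 6 had a higher and 5 a lower MRL, beside the same 22.0% and 24.7% over all kept genes, with a median of 3.23. AATF, a nuclear factor linked to survival, had 4.78 ± 0.18 (adjusted p = 0.000617 by limma). The kinase IRAK1 had 2.07 ± 0.42 (adjusted p = 0.00484 by limma) and the death effector BAX 2.42 ± 0.37 (adjusted p = 0.0196 by limma, or 0.0521 without gradient 1). RHOA, a small GTPase, was the 1 gene of the list with light polysomes leading in every gradient, at 58.4%, 48.3% and 63.6%; it was picked out after its values were seen.

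Of 27 kept neighbours on Xq22 outside the families, 5 had a higher and 9 a lower MRL, again beside 22.0% and 24.7%, with a median of 2.99. ARMCX3, a mitochondrial outer membrane protein, had 4.26 ± 0.39 (adjusted p = 0.00438 by limma, or 0.0626 without gradient 1) and the RNA-binding protein gene HNRNPH2 4.22 ± 0.50 (adjusted p = 0.00682 by limma). The ribosomal protein gene RPL36A had 1.24 ± 0.08 (adjusted p = 8.1e-05 by limma) and TMSB15B, a thymosin with near-identical copies beside it whose reads may be split, 1.66 ± 0.07 (adjusted p = 0.000312 by limma). Its copies TMSB15A and TMSB15C, at 1.79 and 1.68, are also among the 9 neighbours of lower MRL. These calls may therefore not be independent of each other. Light polysomes led in all 3 gradients for 2 neighbours, ARMCX6 (47.9%, 42.6% and 41.8%) and TRMT2B (58.8%, 44.7% and 49.0%). Loads of these neighbours ran from 1.24 to 4.26. An annotated read-through gene joins RPL36A and HNRNPH2, so their counts are uncertain to that extent. Without gradient 1 the counts of higher MRL fell to 4 of 33, 3 of 18 and 1 of 27 in the 3 lists, and those of lower MRL to 4, 2 and 7; without gradient 3 the Xq22 count of higher MRL was 3.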

How the data were processed

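Polysome fractions of vehicle-treated HEK293 were sequenced in 9 libraries, 3 fractions with 3 replicates; no column of another sample was used. Reads were counted by gene on GRCh38 with featureCounts, per the submitters' processing notes; not given in the sources used here are aligner, options and strandedness. The deposited signal is the count of a gene over the library's size factor, and division by the smallest step gave whole reads for 100% of values (tolerance 0.01 reads), and the size factors lay within 0.987% of median-of-ratios factors. The percent deposited by the authors is a gene's share over the 3 fractions of a gradient, and it was recomputed to within 5.5e-08. The authors' deposited MRL is a score; its weights of 1, 2.5 and 6 were solved from the table (largest error 4.61e-09). The authors' deposited polysome enrichment, a log2 value with no stated formula, was not used. ERCC spike-ins named in the labels were not used.

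The members and gene lists were chosen with earlier results of these data known. All 9 members are named, with the 3 nearest genes of each by distance and the 2 highest and 2 lowest genes of each list by MRL; not every gene so selected is reported here. Genes with a mean under 10 recovered reads or none in a gradient were left out (941). Fractions were compared with limma 3.58.1 (trend) on log2(normalized count + 1) with fraction as the only term, two-sided, with Benjamini-Hochberg adjustment over 12720 genes; this scale understates the change of low genes. MRL was tested per gradient as log2 MRL minus the median gene against 0. Because the values are normalized counts, edgeR 4.0.16 and DESeq2 1.42.0 on recovered reads were alternatives; the edgeR counts of calls are given with the alternatives. Replicate numbers pair the libraries, since the design splits each replicate into the fractions and the labels' batch equals the number; deviations of same-numbered libraries correlated at −0.54 to 0.39. In simulated data for heavy against monosome, 150 of 200 genes changed by 4-fold were recovered among 12720, with 13 false calls. The changed genes were drawn only from those of higher count, and no simulated library stood apart. Far fewer genes were changed than were called in the data. This recovery therefore does not cover genes of few reads such as TCEAL3 and TCEAL7. Sequences came from GENCODE release 29, where 13658 identifiers matched. The number of gradients, 3, limits the precision of every value. Lists were RNA polymerase II elongation factors, p75 neurotrophin receptor pathway and Xq22 neighbours.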

Additional observations from a re-analysis of the deposited data

How the results depend on the processing

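For heavy against light, 9 of 9 members kept their sign in 11 alternatives, and for each comparison with monosomes 7 of 9 did. The sign changes of TCEAL3 and BEX2 came only with read totals, which moved all genes together. TCEAL1 changed sign for light against monosome without gradient 3 (−0.14), and TCEAL8 without gradient 2 and without light library 2 alone. The counts of genes called depended on scaling and on single gradients. With read totals as the scale, 7734 genes were higher and 1102 lower in heavy polysomes than in monosomes (3145 and 3101 with the authors' factors), and 7391 higher and 365 lower in light polysomes than in monosomes (1077 and 1303). Leaving out 1 gradient at a time gave 1271 to 3996 higher and 1866 to 3818 lower for heavy against monosome. For light against monosome it gave 149 to 2202 and 413 to 2305. For heavy against light it gave 0 to 3806 and 0 to 3845, and for MRL 1258 to 3698 and 2164 to 3566. The lowest counts came without gradient 1, and for heavy against light also without gradient 3 (1 higher, 0 lower); the highest came without gradient 2. Without gradient 1, limma called no gene for heavy against light, while 1057 higher and 1433 lower genes had an unadjusted p under 0.05; without gradient 3 these were 1319 and 1781. The counts fall with fewer libraries, but those without gradient 2 did not. Without light library 2 alone, 3137 genes were higher in heavy than in light polysomes, against 1869. The members' median MRL was 3.57 with weights of 1, 3 and 8 and 3.21 with read totals, while leaving out a gradient kept it between 2.85 and 2.90. The first 2 settings change the scale for all genes, so their values cannot be set against the median gene's 3.17. As log2 differences from the median gene, read totals gave the lowest values for TCEAL4 (0.224), TCEAL9 (−0.143), BEX1 (−0.153), BEX2 (−0.274) and BEX4 (−0.135). The sign for TCEAL9 changed in 4 of 8 alternatives and that for BEX4 in 1.

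With the replicate block, 3152 genes were higher and 3122 lower for heavy against monosome, 1069 and 1355 for light against monosome, and 1970 and 2332 for heavy against light; BEX5 and TCEAL7 kept their side of the threshold. On recovered reads edgeR called 3063 and 3194, 1150 and 1264, and 1655 and 2608. TCEAL3 and TCEAL7 had 17 and 3 reads in their lowest libraries; the part of depth in their errors was not tested.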

Other observations

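Some of the genes placed most like the members have coding sequences many times as long. Among the nearest to BEX4 (360 coding bases) were REV3L, the catalytic subunit of DNA polymerase zeta, with 9390 coding bases, and the autophagy gene ATG2B with 6234, at distances of 6.72 and 8.48 percentage points over the 9 shares. REV3L had light shares of 62.1%, 48.4% and 67.3% in gradients 1, 2 and 3, beside 61.3%, 47.3% and 67.8% for BEX4. ATG2B had an MRL of 3.17, beside 3.08 for BEX4. Next to TCEAL9 (312 coding bases) the second nearest gene was the histone methyltransferase gene KMT2A with 11907 coding bases, at 14.9, between MTPN (354 coding bases) at 12.3 and PTMA (333 coding bases) at 15.3. KMT2A had light shares of 61.6%, 57.4% and 69.3%. PDZD2, second nearest to TCEAL3 (600 coding bases), has 8517 coding bases and had light shares of 43.9%, 35.1% and 60.2%. PLPP7 and KIAA0040, also near TCEAL3, had 813 and 297. The nearest genes of TCEAL8, TCEAL1 and BEX1 lay below the kept-gene median of 1402.5 throughout. For TCEAL8, PDCD5, RAP2A and RAB39B had 375, 549 and 639 coding bases, and for TCEAL1, EIF5A2, EIF1B and EIF4E2 had 459, 339 and 735. For BEX1, NEK7, HAND1 and AK3 had 906, 645 and 681. Those of BEX2 had 540, 480 and 2832, those of BEX3 387, 318 and 1458, and those of TCEAL4 3576, 3477 and 3228. The neighbours were ranked on the same shares that are listed, so these values are a description.

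The GC content of the gene in the authors' deposited table separated the groups: it was 51.9% to 56.7% over the 4 BEX genes and 39.3% to 50.7% over the 5 TCEAL genes. Outside the members, BEX5 had 49.9%, which lies within the TCEAL range, and TCEAL7 44.2%.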
